A study of Mus musculus with 6 samples.

Results

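The PIM kinases are 3 genes of the mouse, Pim1, Pim2 and Pim3, measured here in erythroid cells with and without the transcription factor STAT5. Their members were all probe sets of the Mouse430_2 expression array that the platform annotation pairs with one of these symbols alone, which gave 3 of 18193 genes and 6 of 45037 probe sets, 2 for Pim1, 1 for Pim2 and 3 for Pim3. RNA was taken from fetal liver cells of embryonic day 14.5 that carry Ter119, a surface marker of red cell precursors in late maturation. The 3 wild type pools and the 3 STAT5 knockout pools each held cells from 3 to 5 embryos of 1 genotype, and each pool was run on 1 array. The labels call the second group STAT5 KO and name neither the allele nor the mouse strain, and no treatment was given to either group.

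PIM proteins are serine/threonine kinases that promote survival, growth and cell cycle entry of blood cells. They are active as soon as they are made and have no regulatory domain, so their activity in a cell follows how much transcript and protein is present. Cytokine receptors that signal through JAK kinases and STAT factors, the erythropoietin receptor among them, induce PIM genes, and Pim1 is a long-known transcriptional target of STAT5. Their substrates include the death promoter BAD, the cell cycle inhibitors p21 and p27 and regulators of translation, a set that overlaps with that of the AKT kinases.

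The promoters are shown because the comparison removes a transcription factor. RefSeq windows of 300 bases, 250 before to 50 after each annotated start, were matched for all 3 genes by symbol (build GRCm38.p6, plus strand of the genome in each case). Pim1 has 2 annotated starts, the first with its window at chr17:29490535-29490834 and the second with its window at chr17:29492835-29493134. Pim2 has a window at chrX:7878056-7878355 and Pim3 at chr15:88861944-88862243. The upstream Pim1 window, the Pim2 window and the Pim3 window follow, 5′ to 3′, with each GC box (CCGCCC on either strand, a motif of SP and KLF family factors) in capitals.
Pim1: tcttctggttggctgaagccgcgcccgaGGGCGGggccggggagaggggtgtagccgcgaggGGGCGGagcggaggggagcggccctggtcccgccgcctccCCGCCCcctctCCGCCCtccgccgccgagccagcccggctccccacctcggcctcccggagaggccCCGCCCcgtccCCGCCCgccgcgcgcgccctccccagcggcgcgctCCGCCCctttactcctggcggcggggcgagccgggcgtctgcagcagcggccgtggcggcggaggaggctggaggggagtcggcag
Pim2: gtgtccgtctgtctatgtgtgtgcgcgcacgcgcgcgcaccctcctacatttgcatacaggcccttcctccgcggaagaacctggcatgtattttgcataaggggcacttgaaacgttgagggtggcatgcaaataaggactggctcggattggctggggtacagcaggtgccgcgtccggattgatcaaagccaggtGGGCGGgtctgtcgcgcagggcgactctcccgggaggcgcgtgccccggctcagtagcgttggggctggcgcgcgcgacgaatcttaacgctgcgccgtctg
Pim3: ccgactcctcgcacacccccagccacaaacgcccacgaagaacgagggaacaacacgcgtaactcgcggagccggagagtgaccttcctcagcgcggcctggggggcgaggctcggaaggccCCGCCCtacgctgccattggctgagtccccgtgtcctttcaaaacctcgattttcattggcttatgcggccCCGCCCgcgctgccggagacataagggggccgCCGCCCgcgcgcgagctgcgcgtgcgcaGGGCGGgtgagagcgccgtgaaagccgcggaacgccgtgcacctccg

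The upstream Pim1 window held 7 GC boxes and had a GC content of 81.3%, higher than 99.3% of 32851 such windows. The Pim3 window held 4 GC boxes at a GC content of 69.0%, and the Pim2 window 1 at 62.7%. A GC box was present in 35.7% of all windows. The second Pim1 window, with a GC content of 49.0%, held none. The palindrome TTCNNNGAA, to which STAT factors bind, was in none of the 4 PIM windows and in 8.3% of all windows, so these letters are not found within this distance of the annotated starts. The GATA motif AGATAA, on either strand, was absent from the 4 windows as well (11.2% of all windows). The CCAAT box, on either strand, was found 1 time in the Pim2 window, 2 times in the Pim3 window and in neither Pim1 window (37.4% of all windows). Matching the palindrome in 2 other genes of cytokine signalling, Cish and Socs3, shows what it looks like. Stretches of their windows, chr9:107296644-107296693 on the plus strand and chr11:117969497-117969535 on the minus strand, have it in capitals.
Cish: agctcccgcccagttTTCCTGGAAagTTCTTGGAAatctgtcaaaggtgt
Socs3: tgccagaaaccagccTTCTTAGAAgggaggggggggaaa

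Values are deposited linear intensities, called signals, and differences are given on the log2 scale as knockout minus wild type. The median signal of an array ran from 175.6 to 215.8, and the actin 3′ to 5′ ratio from 0.965 to 1.04. A signal of 162.5 is called the control level: 95% of the values of 27 control probe sets for transcripts of Bacillus subtilis, pooled over the arrays, lay below it. At the 4 probe sets of Stat5a and Stat5b each knockout array was below each wild type array, with limma adjusted p from 0.237 to 0.532. Knockout means lay under the control level at 3 of the 4, where Stat5a was at least 2.29-fold or at least 1.33-fold lower and Stat5b at least 3.45-fold lower. At the other Stat5b probe set wild type was 2.45-fold higher. The sources used here do not say whether these probe sets lie in the deleted part. All 12 measured erythroid markers were above the control level on average, with Alas2, the first enzyme of heme synthesis, at a mean log2 signal of 15.92 in wild type and 15.75 in knockout. Groups of 3 arrays limit the precision, and no two-sided exact permutation test of 3 against 3 can go below p = 0.1.

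Pim1 signal was lower in the STAT5 knockout pools than in the wild type pools at both of its probe sets. Neither probe set passed limma's main test over all probe sets (adjusted p = 0.311 and 0.553). Pim2 and Pim3 were not distinguishable between the genotypes. The intervals that follow are for single probe sets and are not adjusted for the number tested. At the brighter Pim1 probe set the knockout signal was 38.0% of wild type (95% interval 25% to 57.8%, limma), and at the dimmer one 55.2% (35.6% to 85.6%). At Pim2 it was 99.1% (67.3% to 146%). At the 2 Pim3 probe sets that read above the control level on all 6 arrays it was 103% (66.8% to 160.0%) and 90.3% (60.0% to 136%).

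Pim1 encodes the founding member of the family, found as a site of retrovirus insertion in lymphomas. Its brighter probe set, 1435458_at, read 10443, 11622 and 14739 in wild type replicates 1 to 3 and 4091, 5564 and 4318 in knockout replicates 1 to 3. Every knockout pool was below every wild type pool, and the highest knockout value was well short of the lowest wild type value. The mean log2 signal was 13.57 ± 0.25 (SD, n = 3) in wild type and 12.17 ± 0.24 in knockout, a difference of -1.40 (SE 0.25). Readings reached at most 23.5% of the highest signal of an array, so the probe set was not near the ceiling. In limma's test over all probe sets the adjusted p was 0.311, and that test called 0 of 45037 probe sets (0%; 3606, or 8.01%, had an unadjusted p under 0.05). The submitters' test after Benjamini-Hochberg adjustment also called 0. With a mean-variance trend in limma, which lets bright probe sets have a smaller prior spread, Pim1 fell with an adjusted p of 0.0184. That fit called 70 probe sets (0.155%), of which 36 were lower in knockout (0.0799%).

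The call of Pim1 with the trend depended on the pools in the fit. It held when wild type replicate 3 was left out (limma adjusted p = 0.0468). It was lost when wild type replicate 1 (0.0666) or wild type replicate 2 (0.0773) was left out, and likewise for knockout replicate 1 (0.111), knockout replicate 2 (0.0518) and knockout replicate 3 (0.123). The difference itself ran from -1.53 to -1.26 over these 6 fits. In these limma fits a group has 2 arrays in place of 3.

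The dimmer Pim1 probe set, 1423006_at, gave the same direction. It read 3751, 3618 and 5254 in the wild type pools and 1930, 2298 and 2705 in the knockout pools. Again the groups did not overlap, and wild type replicate 3 was the highest pool at both Pim1 probe sets. The mean log2 signal went from 12.02 ± 0.30 to 11.16 ± 0.24, a difference of -0.86 (SE 0.26). It did not pass in limma without the trend (adjusted p = 0.553) or with it (0.152). All knockout arrays lay below all wild type arrays at 8.95% of probe sets. Both Pim1 probe sets met the submitters' own criterion of an unadjusted p under 0.05 and a fold above 1.5, which 5.19% of probe sets met.

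**Figure D1:**
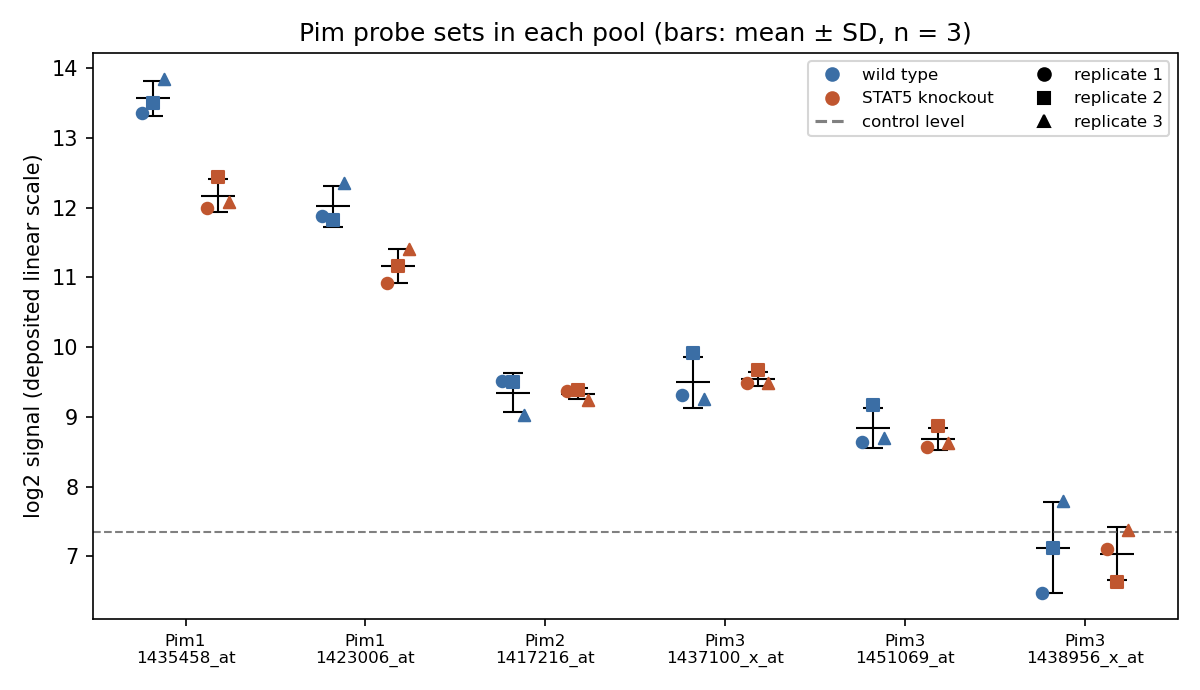
Log2 signal (vertical axis) of the 6 PIM probe sets in each of the 6 pools, with wild type in blue, STAT5 knockout in orange, a marker shape for each replicate number, and bars for the mean ± SD of 3 pools. At both Pim1 probe sets all knockout points lie below all wild type points, at the other 4 the groups overlap, and the last Pim3 probe set scatters around the dashed control level.

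Pim2 encodes the family member best known from lymphoid cells and for its role in cap-dependent translation. Its single probe set, 1417216_at, read 728, 727 and 523 in the wild type pools and 664, 668 and 606 in the knockout pools. The knockout values lay inside the wild type range, which wild type replicate 3 widened at its lower end. The mean log2 signal was 9.35 ± 0.27 in wild type and 9.33 ± 0.08 in knockout. The difference of -0.01 (SE 0.23) had a 95% interval from -0.57 to 0.55 on the log2 scale (limma, adjusted p = 0.992). Median centring of the arrays turned the sign (0.10).

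Pim3 encodes a kinase first cloned as a gene induced by depolarization of neural cells. Its brightest probe set, 1437100_x_at, read 639, 968 and 611 in wild type and 716, 812 and 718 in knockout pools. Wild type replicate 2 stood above the other 5 pools, and the knockout pools lay between it and the other two. The mean log2 signal was 9.5 ± 0.37 and 9.55 ± 0.10, a difference of 0.05 (SE 0.26; 95% interval from -0.58 to 0.68, limma adjusted p = 0.969). The value ran from -0.073 without wild type replicate 3 to 0.26 without wild type replicate 2.

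The second Pim3 probe set, 1451069_at, read 401, 574 and 414 in wild type and 380, 467 and 396 in knockout. Wild type replicate 2 was again the highest pool, and the groups overlapped. The difference was -0.15 (SE 0.24, limma adjusted p = 0.881), and it was 0.02 without wild type replicate 2. The third, 1438956_x_at, was above the control level on 2 of 6 arrays only, with values from 88.9 to 221 in wild type and from 99.3 to 167 in knockout. Both of its group means lay below the control level, so no fold is given for it. Names ending in _x_at mark probe sets whose probes can bind other transcripts too, and 2 of the 3 Pim3 probe sets are of this kind.

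**Figure D2:**
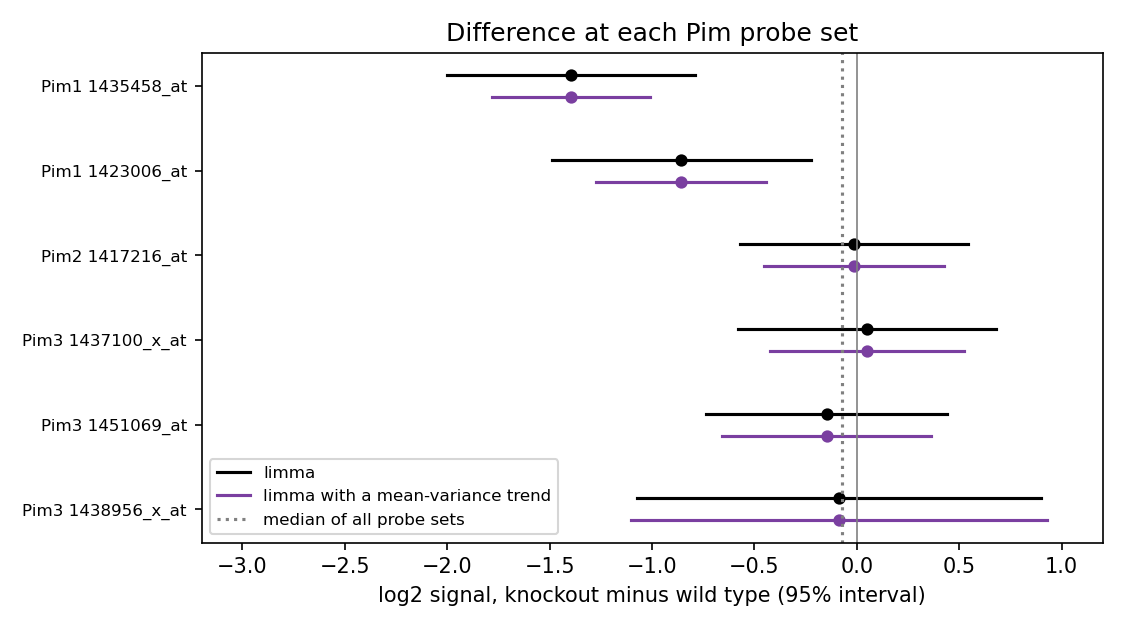
Difference in log2 signal, knockout minus wild type (horizontal axis), at each PIM probe set with 95% intervals from limma (black) and from limma with a mean-variance trend (purple); the dotted line is the median of all probe sets, -0.07. The intervals of both Pim1 probe sets lie below 0 in both fits, and those of Pim2 and of the 3 Pim3 probe sets include 0.

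Whether the genotype difference was of unequal size for the 3 genes was measured as a ratio within each array, in which the scaling of the array cancels. Log2 Pim1 minus log2 Pim2, at the brightest probe set of each, was 3.84, 4.0 and 4.82 in wild type and 2.62, 3.06 and 2.83 in knockout pools. The groups did not overlap, and the mean changed by -1.38. Log2 Pim1 minus log2 Pim3 was 4.03, 3.59 and 4.59 in wild type and 2.51, 2.78 and 2.59 in knockout, a change of -1.44, also without overlap. Log2 Pim2 minus log2 Pim3 overlapped between the groups and changed by -0.06. The two-sided exact permutation p was 0.1, 0.1 and 0.8 for these 3 pairs (0.15, 0.15 and 0.8 after Benjamini-Hochberg adjustment over the 3), and 0.1 is the smallest p that 3 against 3 arrays allow. At these probe sets the ratios of Pim1 to Pim2 and to Pim3 therefore changed by more than their spread, but the design cannot take them below the threshold. The result depends on the Pim1 probe set. With the dimmer Pim1 probe set the ratio to Pim3 overlapped between the groups. Its log2 signal and that of Pim3 were 11.40 and 9.49 in knockout replicate 3, and 11.82 and 9.92 in wild type replicate 2.

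**Figure D3:**
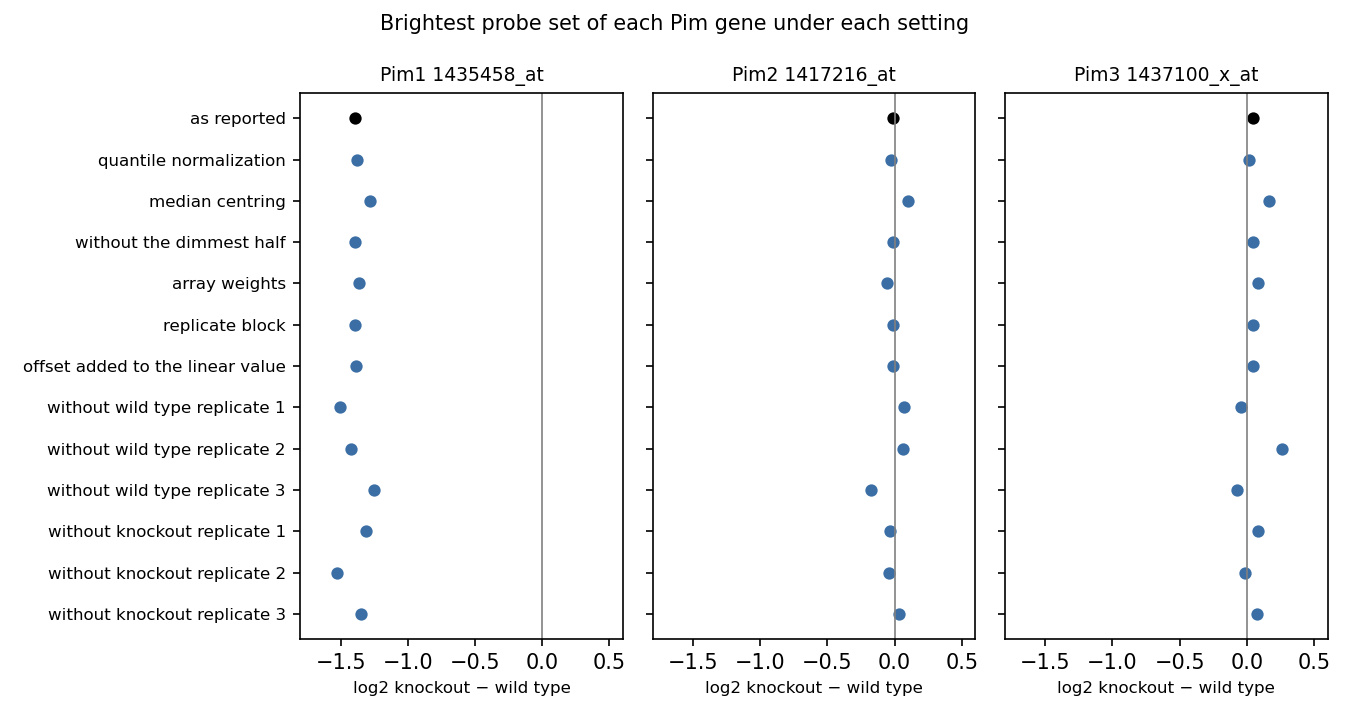
Difference in log2 signal, knockout minus wild type (horizontal axis), at the brightest probe set of Pim1, Pim2 and Pim3 (panels) as reported (black) and under the alternative settings or without 1 array (blue, vertical axis). The Pim1 points lie between -1.53 and -1.26, while the Pim2 and Pim3 points fall on both sides of 0.

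Hepatocytes surround the erythroid cells of the fetal liver, and their markers were lower in knockout pools too. Over all genes (1 probe set each), 10570 of 18193 were lower in knockout, and 9.85% were lower without overlap. Of 15 hepatocyte markers 13 were measured, and 12 were above the control level on average. None was at 0, and all 13 were lower in knockout (8 without overlap) at the probe set that stood for the gene. Other probe sets went as high as 0.09 for Apob and 0.40 for Dlk1. Their summed signal ran from 159203 to 268146 in wild type and from 137998 to 153770 in knockout. Alb, the albumin gene, differed by -0.43 and Fgg, a fibrinogen gene, by -1.07. Endothelial markers summed to between 4003 and 6745 in wild type and between 3823 and 4416 in knockout, with 10 of 12 lower. Macrophage markers (18502 to 29623 against 24019 to 31289) and megakaryocyte markers (3708 to 14041 against 3848 to 5134) overlapped between the genotypes, with 4 of 10 and 5 of 7 lower. Granulocyte and mast cell markers (9 of 11 lower) and lymphoid markers (5 of 9 lower) overlapped in their sums too. The sum of the erythroid markers was lower as well (287887 to 295946 against 227098 to 284857), with 11 of 12 lower. The part of any of these in the Pim1 difference was not tested. In RNA of whole pools, fewer cells that express Pim1 and less Pim1 RNA per cell cannot be told apart.

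Genes above the PIM kinases in the pathway were described next, by 1 probe set per gene over 18193 genes. There, all knockout arrays lay below all wild type arrays for 9.85% of genes and above them for 7.02%, limma called 8 genes (0.0440%), limma with the trend called 80 (0.440%), and the median difference was -0.08. Of 17 listed genes from the erythropoietin and stem cell factor receptors to STAT factors, 15 were measured. None passed in limma with or without the trend, 3 were lower and 2 higher without overlap, and the median was 0.09. That median was 0.032 after quantile normalization, 0.20 after median centring and -0.049 where all probe sets of a gene were averaged. It was between 0.0052 and 0.030 when wild type replicate 1 or 2 or knockout replicate 3 was left out. The 3 lower ones were Stat5a, Stat5b and Csf2rb, the common beta chain of cytokine receptors (-0.46). Stat5a and Stat5b are the genes of the label check given above, so their place in this count is no further result. The higher ones were Kit, the stem cell factor receptor gene, at 1.16 (SE 0.43, limma adjusted p = 0.548), and Cbl. Cbl, which encodes a ubiquitin ligase of activated receptors, differed by 0.79 (SE 0.23, limma adjusted p = 0.481), with its 3 probe sets from 0.27 to 0.79. Epor and Jak2, which encode the erythropoietin receptor and its kinase, differed by 0.28 and 0.37 with overlapping groups. Stat3, whose product can also induce PIM genes, differed by 0.11, with its 4 probe sets from -0.33 to 0.11.

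Other target genes of STAT5 had a median of -0.51 over 17 genes, with 8 lower and 2 higher without overlap. The median was -0.31 without wild type replicate 2 and -0.33 without knockout replicate 1. Since the list was drawn up with earlier results known, its count describes these genes and is no independent evidence of a direction. Limma called none, and limma with the trend called 1 lower and 1 higher. Socs3, a feedback inhibitor of cytokine receptors, fell from 9.74 ± 0.20 to 6.92 ± 0.36, at least 5.27-fold (adjusted p = 0.0058 with the trend, and 0.0536 without it). That call held in limma whichever array was left out (adjusted p with the trend from 0.0099 to 0.0402). Spred2, an inhibitor of the ERK route, rose by 1.15 (adjusted p = 0.0314 with the trend, and 0.231 without it), although its 5 probe sets ranged from -0.19 to 1.15. Its call held only without wild type replicate 3 (0.0361) and was lost in the other 5 fits without an array (0.0837 to 0.157). At the brighter Pim1 probe set the difference of -1.40 lay between that of Socs3 and that of Cish, the gene of another feedback inhibitor (-1.20, SE 0.30). At the dimmer Pim1 probe set it was -0.86, smaller in size than that of Cish. The order of these genes was not tested.

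Transcripts of proteins that PIM kinases phosphorylate lay on both sides of 0. All 26 genes of the list were measured, 24 of them above the control level on average. The median was 0.03, with 1 gene lower and 5 higher without overlap, and none passed in limma with or without the trend. Myc and Myb, transcription factors of proliferating progenitors whose proteins PIM1 stabilises or modifies, had the smallest p of the list. Myc differed by 1.10 (SE 0.23, adjusted p = 0.346) and Myb by 1.65 (SE 0.40, adjusted p = 0.402), the latter with its 3 probe sets between 1.60 and 2.09. The other 3 that were higher without overlap were Cdkn1b, which encodes p27 (0.43), Eif4b, an initiation factor (0.35), and Eif4ebp1, the translation inhibitor 4E-BP1 (0.50, with other probe sets from -0.22 to 1.08). Bad, the death promoter that PIM kinases inactivate, differed by less than its error (0.00, SE 0.16), and by -0.21 at its other probe set. Cdkn1a, which encodes p21, differed by 0.18 (SE 0.32), and by -0.26 at its other probe set. The 1 gene lower without overlap, Cxcr4, was below the control level on all 6 arrays. Median centring moved the median of this list to 0.14, and leaving out _x_at, _s_at and _a_at probe sets moved it to -0.16. Without 1 array it ran from -0.011 (wild type replicate 1 left out) to 0.093 (knockout replicate 2 left out), so it has no settled sign.

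The AKT and TOR route, which acts on many of the same substrates, had a median slightly above that of all genes (-0.08). The median of the factors that hold or remove PIM proteins was further above it (0.25). Of 20 genes of the AKT and TOR route 17 were measured, with a median of 0.07 (0.17 without wild type replicate 3 and 0.18 after median centring), none lower and 3 higher without overlap, and none called by either limma fit. Akt1 and Akt2 differed by 0.06 and 0.10, and Mtor by 0.05, at the probe sets that stood for them. Other probe sets of these genes went as low as -0.59, -0.65 and -0.36. Rictor, a subunit of the second TOR complex, had the smallest p (0.55, SE 0.22, limma adjusted p = 0.560), with its 5 probe sets from 0.08 to 0.55. The ribosomal protein gene Rps6 followed (0.64, SE 0.26, limma adjusted p = 0.560), and its 2 probe sets gave opposite signs (-0.62 and 0.64). Without wild type replicate 3 the difference of Rps6 was 0.40. Among chaperones and phosphatase subunits that act on PIM proteins, 10 of 11 genes were measured, 9 were above 0 and 3 higher without overlap. Over all genes 7623 of 18193 were above 0, and 7.02% were higher without overlap. The median of these factors was 0.25 (0.077 without wild type replicate 2), and none was called by either fit. Hspa4, an HSP70 family chaperone, differed by 0.72 (SE 0.17, limma adjusted p = 0.389), with its 4 probe sets between 0.06 and 1.30. Hsp90aa1 differed by 0.06, with its 5 probe sets from -0.66 to 0.31. Ppp2ca, a catalytic subunit of phosphatase 2A, differed by 0.08, with its 3 probe sets from -0.02 to 0.08. Ppp2cb, the other catalytic subunit, gave 0.33 and -0.71 at its 2 probe sets.

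Transcripts induced by tissue handling were measured because PIM genes respond quickly to stimuli. Over all genes 7623 of 18193 were above 0, and 7.02% were higher without overlap. Of the 20 handling genes, 17 were above 0 and 6 were higher without overlap, with a median of 0.35. Their summed signal ran from 39132 to 44171 in wild type and from 46972 to 63602 in knockout. Hspa1a, a heat shock gene, rose by 2.28 (SE 0.49, adjusted p = 0.0488 with the trend in limma, and 0.355 without it), a call lost whichever array was left out (0.0674 to 0.156). Its neighbour Hspa1b differed by 2.16 (SE 0.52, adjusted p = 0.063 with the trend). The part of handling in the Pim1 difference was not tested.

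**Figure D4:**
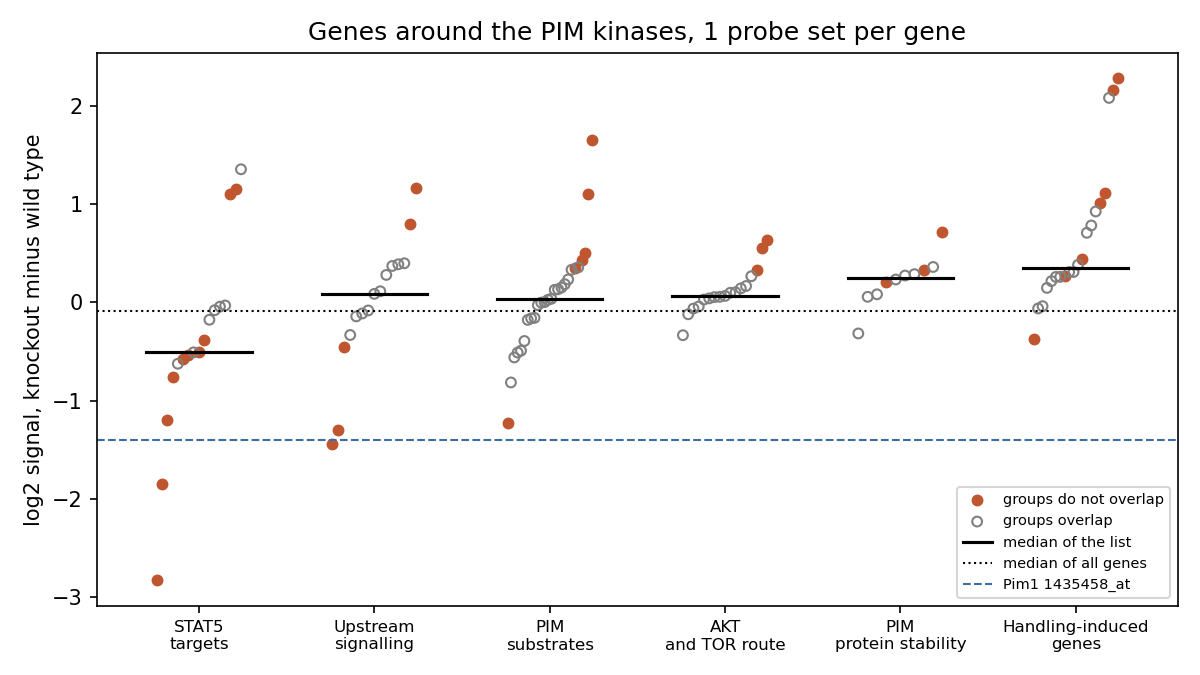
Difference in log2 signal, knockout minus wild type (vertical axis), of the measured genes of 6 lists around the PIM kinases, 1 point per gene, filled where the groups do not overlap, with the median of each list as a bar. The STAT5 targets lie mostly below the median of all genes (dotted line, -0.08), 2 of them, Socs3 and Podxl, plotted beyond the brighter Pim1 probe set (dashed line, -1.40). Differences are drawn as measured. Since the knockout means of these 2 lie under the control level, only bounds hold at the probe sets plotted (at least 5.27-fold for Socs3, at least 1.79-fold for Podxl). The other probe set of Podxl differed by -0.33. The PIM substrates spread on both sides.

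Among 9838 genes above the control level on all 6 arrays, those whose log2 signal was most like that of the brighter Pim1 probe set were Aif1l, an actin-binding protein gene, Mcl1, an anti-apoptotic BCL2 family member, and Ago2, the slicer of RNA interference. Their Pearson r with Pim1 over the 6 arrays was 0.990, 0.990 and 0.989, and their differences were -1.16, -0.76 and -0.48. With Pim2 the highest r were those of Loxl3, a lysyl oxidase family gene (0.992), Utp20, a ribosome biogenesis factor (0.990), and Megf6 (0.985). With Pim3 they were those of Dtx3l, a ubiquitin ligase gene (0.991), Gnao1, a G protein subunit gene (0.990), and the predicted gene Gm20300 (0.990). The likeness rests on 6 arrays, which for Pim1 are split by genotype. Of 9837 genes compared, an r above 0.9 was reached by 179 with Pim1, 138 with Pim2 and 75 with Pim3. How many unrelated genes would reach it over 6 arrays was not tested.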

How the data were processed

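Biotin-labelled RNA of 6 pools was hybridised to Affymetrix Mouse430_2 arrays, per the labels' protocols. Groups and replicate numbers came from sample titles. The deposited values are intensities, and they are linear. RMA and Partek are named, without versions, per the submitters' processing notes, but each array has a mean of 500.0 once 2% is trimmed from each end, so arrays were scaled singly, by steps the sources used here do not give. Log2 of the deposited intensity was taken with no pseudocount. Probe sets were named from the platform annotation: of 45037 (64 AFFX controls left out), 34945 had 1 symbol, 932 several and 9160 none. For gene tests the probe set of highest mean stood for its gene.

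The test was limma 3.58.1 (R 4.3.3), knockout against wild type on all 6 arrays, Benjamini-Hochberg adjusted at 0.05 over all probe sets or all genes, with the fit with a mean-variance trend beside it. Scripts were tested on simulated data. Members and gene lists were chosen with earlier results of these data known. Named genes were all PIM, Stat5a and Stat5b probe sets, per list the genes called by either fit or the 2 with the smallest p, and per PIM gene the 3 most alike by Pearson r; further genes are examples picked with their values in view. Alternatives were other moderation, normalization, dim probe set filter, array weights, replicate block, adding 32 before log2, other probe set choices and leaving out each array.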

Additional observations from a re-analysis of the deposited data

How the results depend on the processing

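Over the 16 alternatives the brighter Pim1 probe set stayed below 0, from -1.53 to -1.26, with a limma adjusted p from 0.0184 to 0.635. It passed at the same difference of -1.40 with the trend, with the trend and robust estimation (0.0228) and with the trend and the replicate block (0.0422), and not in the other 13. The dimmer one stayed between -0.98 and -0.69 and passed in none. Without 1 array each, Pim1 1435458_at ran from -1.53 to -1.26, Pim2 from -0.17 to 0.067 and Pim3 1437100_x_at from -0.073 to 0.26, the same values in the fits with the trend, and Pim2 was 0.10 after median centring. Of the other Pim3 probe sets, 1451069_at ran from -0.24 to 0.019 without 1 array (above 0 without wild type replicate 2), and 1438956_x_at was 0.050 after quantile normalization, 0.028 after median centring, 0.10 with array weights, and without 1 array from -0.41 to 0.25 (above 0 without wild type replicate 3, and at 0.12 without knockout replicate 2). The within-array ratio of Pim2 to Pim3 turned to 0.048 with the mean of all probe sets and ran from -0.19 to 0.11 without 1 array. Ppp2cb turned to -0.19 with the mean of all probe sets and to -0.71 without _x_at, _s_at and _a_at probe sets. The cause of these turns was not tested.

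Limma's count of probe sets called, 0 as reported, was 70 with the trend, 69 with robust estimation as well, 20 without the dimmest 50%, 61 with the trend and the replicate block and 5 with 32 added. The count of genes, 8 as reported, was 80 with the trend, 66 with robust estimation as well, 4 by the submitters' test, 15 after quantile normalization, 3 after median centring, 53 without the dimmest 50%, 15 with array weights, 0 with the replicate block, 75 with the block and the trend, 3 without _x_at, _s_at and _a_at probe sets and 0 without any 1 array. With the trend, the 70 probe sets were 7 to 78 and the 80 genes 9 to 75 without 1 array. The median difference of all genes was -0.08 as deposited, -0.04 after quantile normalization and 0.03 after median centring.

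Deviations of same-numbered arrays of the 2 genotypes had correlations of 0.017, 0.029 and 0.029 over all probe sets. Arrays of unlike number gave -0.048 to 0.021. The deviations were taken from means of 3 arrays, so these correlations constrain each other. They cannot settle whether the numbers pair the pools, and the block is given as an alternative only. With the replicate block the Pim1 difference was -1.40 (limma adjusted p = 0.635 without the trend), the Pim2 difference -0.01 and the Pim3 difference 0.05, and the ratio of Pim1 to Pim2 changed by -1.38. With the block and the trend Myc (limma adjusted p = 0.0500, under the threshold before rounding), Myb (0.0304) and Hspa1b (0.0244) passed as well.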

Other observations

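The 2 Pim1 probe sets changed by unequal amounts, a ratio looked at after the values were seen. Log2 signal of 1435458_at minus that of 1423006_at was 1.48, 1.68 and 1.49 in wild type pools and 1.08, 1.28 and 0.675 in knockout pools, with no overlap. The mean of this ratio was 1.55 ± 0.12 in wild type and 1.01 ± 0.31 in knockout (SD, n = 3), a change of -0.54 (two-sided exact permutation p = 0.1, the smallest possible). The size of the Pim1 difference therefore depends on the probe set, between 2.63-fold and 1.81-fold higher in wild type.

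The ratio of the 2 brighter Pim3 probe sets within arrays was likewise looked at after the values were seen. Neither of these probe sets was called between the genotypes by itself (limma adjusted p = 0.969 and 0.881). Log2 signal of 1437100_x_at minus that of 1451069_at was 0.674, 0.752 and 0.562 in wild type and 0.916, 0.798 and 0.859 in knockout pools. This was a change of 0.20 with no overlap (two-sided exact permutation p = 0.1, the smallest possible). The mean of this ratio was 0.66 ± 0.10 in wild type and 0.86 ± 0.06 in knockout (SD, n = 3).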
